A study of Mus musculus with 12 samples.

Results

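The results below concern 9 genes that differed strongly between mice lacking Ifnar2 and wild-type mice after a saline injection and that belong to no interferon-stimulated set: Prtg, Atp6v0e2, BC020535 (Ccm2l in current naming), Mgmt, Dusp16, Orm3, Fgd5, Cbr2 and Retn. They are 9 of 18275 genes tested, and 15 of the 41174 probes on the array carry their names. They were selected on the size of their measured difference after phosphate-buffered saline (PBS), so that difference is described here with no test. The difference after interferon beta (IFN-β), measured on other mice, was tested.

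Total RNA of peritoneal exudate cells, the mixed leukocytes and shed lining cells washed from the abdominal cavity, was measured on 12 single-colour Agilent arrays. Female mice of 8 weeks, of the strain 129S2/SvPas*BALB/c in all groups, received IFN-β (10000 IU/ml, volume not given) or PBS into the peritoneal cavity and were killed after 3 hours. Wild-type mice with PBS, wild-type mice with IFN-β, Ifnar2-/- mice with PBS and Ifnar2-/- mice with IFN-β formed 4 groups of 3 arrays, each array from a different mouse. The labels give the genotype as Ifnar2-/- and nothing used here states how that allele was made.

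Ifnar2 encodes a subunit of the type I interferon receptor, through which IFN-β normally activates STAT transcription factors and a large antiviral programme. Genes of that programme are known to rise within hours of exposure to the cytokine. The 9 genes are known from other roles: hormone-like secretion, plasma transport proteins, cell adhesion, kinase and small GTPase signalling, DNA repair, carbonyl metabolism and proton pumping.

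Levels are given as log2 of the processed signal minus log2 of the 75th percentile on that array, so a level of 0 is that percentile and a step of 1 is a doubling; levels of different probes are not compared. The arrays lay on 3 slides. Slide 1 held the wild-type PBS arrays and wild-type IFN-β array 1, slide 2 held wild-type IFN-β arrays 2 and 3 and array 1 of both Ifnar2-/- groups, and slide 3 held the other Ifnar2-/- arrays. Spots well above background made up 59.4% to 62.5% on slide 3 and 65.2% to 71.6% elsewhere. After PBS no slide held both genotypes, so genotype and slide cannot be told apart in that comparison; after IFN-β slide 2 held both. The Ifnar2 probe A_52_P190405 averaged 4.64 and 4.65 in the wild-type groups and 2.79 and 3.05 in the Ifnar2-/- groups, whereas A_51_P338924 averaged 1.64 and 1.38 against 2.59 and 2.91. Where these probes lie relative to the deleted part is not given, so they check nothing on their own. Of 24 antiviral interferon-stimulated genes, all 24 were lower in Ifnar2-/- after IFN-β. Large peritoneal macrophage markers had list means of 3.96 to 4.70 on the 12 arrays, though single markers lay lower, such as Naip1 at -1.06 in wild type after IFN-β. Of the 11 tested, 5 were higher and 3 lower in Ifnar2-/- after IFN-β, against 21.3% and 17.2% of all genes.

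The sequences that carry the clearest findings are the probes of the Retn and Orm genes, where a pair of close neighbours differed in the same direction, and of Dusp16, where probes of 1 gene disagreed. The Retn probes A_52_P55972 (chr8:3618519-3619340, plus strand) and A_51_P233597 (chr8:3618557-3619378, plus strand) span more genome than their 60 bases, so each is placed across a gap in the genome. Positions are those in the array files, whose headers name the build mm7. Capitals mark the 22 bases that both probes share, which makes them overlapping and not independent readings.

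Retn A_52_P55972: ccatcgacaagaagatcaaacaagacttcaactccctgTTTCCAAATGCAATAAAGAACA
Retn A_51_P233597: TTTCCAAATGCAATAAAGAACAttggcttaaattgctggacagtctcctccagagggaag

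The orosomucoid genes are close relatives, so their probes are shown to make plain how little sequence they share. Orm3 was read at chr4:62791572-62793055, Orm2 at chr4:62797641-62797700 and Orm1 at chr4:62779145-62779752, all on the plus strand of mm7. The longest run of bases shared by the Orm3 and Orm2 probes was 6, by the Orm3 and Orm1 probes 5 and by the Orm2 and Orm1 probes 7. The probes sample different stretches of the transcripts, and how far each binds the relatives' transcripts was not tested.

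Orm3 A_51_P311958: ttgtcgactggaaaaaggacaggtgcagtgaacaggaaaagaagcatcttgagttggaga
Orm2 A_51_P141546: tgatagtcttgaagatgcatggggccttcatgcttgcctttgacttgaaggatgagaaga
Orm1 A_51_P336325: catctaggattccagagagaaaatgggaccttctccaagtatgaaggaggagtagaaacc

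For Dusp16 the first 30 bases of each probe are given, with A_51_P242634 at chr6:134729960-134730000, A_52_P492081 at chr6:134732307-134732366 and A_52_P374825 at chr6:134751853-134751912, all on the minus strand of mm7. The position of A_51_P242634 covers 41 of its 60 bases.

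Dusp16 A_51_P242634: gtacaaaatggtgattttgagcaaaactag
Dusp16 A_52_P492081: ggcatgaagagagcccctttgaaaagcagt
Dusp16 A_52_P374825: ggctcttagccagaataatgacttaagttt

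After IFN-β, 9 of 9 genes differed between Ifnar2-/- and wild type in the direction they had after PBS (limma moderated test, Benjamini-Hochberg adjusted p under 0.05 over all genes), while 38.5% of all genes tested passed the same test in either direction. Among all genes 3887 were higher and 3140 lower in Ifnar2-/-; with no scaling between arrays, which moved the median of all genes up by 0.38, the split was 7636 and 1813. The 9 genes kept their directions with no scaling, as a shift of 0.38 is smaller than each of their differences. Prtg, Fgd5, Dusp16, Cbr2 and Mgmt were higher in Ifnar2-/-, against 21.3% of all genes called higher, and Atp6v0e2, BC020535, Retn and Orm3 were lower, against 17.2% called lower. In all 9 the Ifnar2-/- and wild-type arrays did not overlap after IFN-β, as was the case for 46.8% of all genes; after PBS, where the choice used the values, 29.1% of all genes did not overlap. In order of the size of the measured difference after PBS among all genes, Atp6v0e2 was number 6, Fgd5 24, Cbr2 27, Orm3 50, Dusp16 59 and Mgmt 268. BC020535, Prtg and Retn are left out of that order because their dimmer genotype was above background on 1, 1 and 0 of 3 arrays after PBS.

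**Figure D1:**
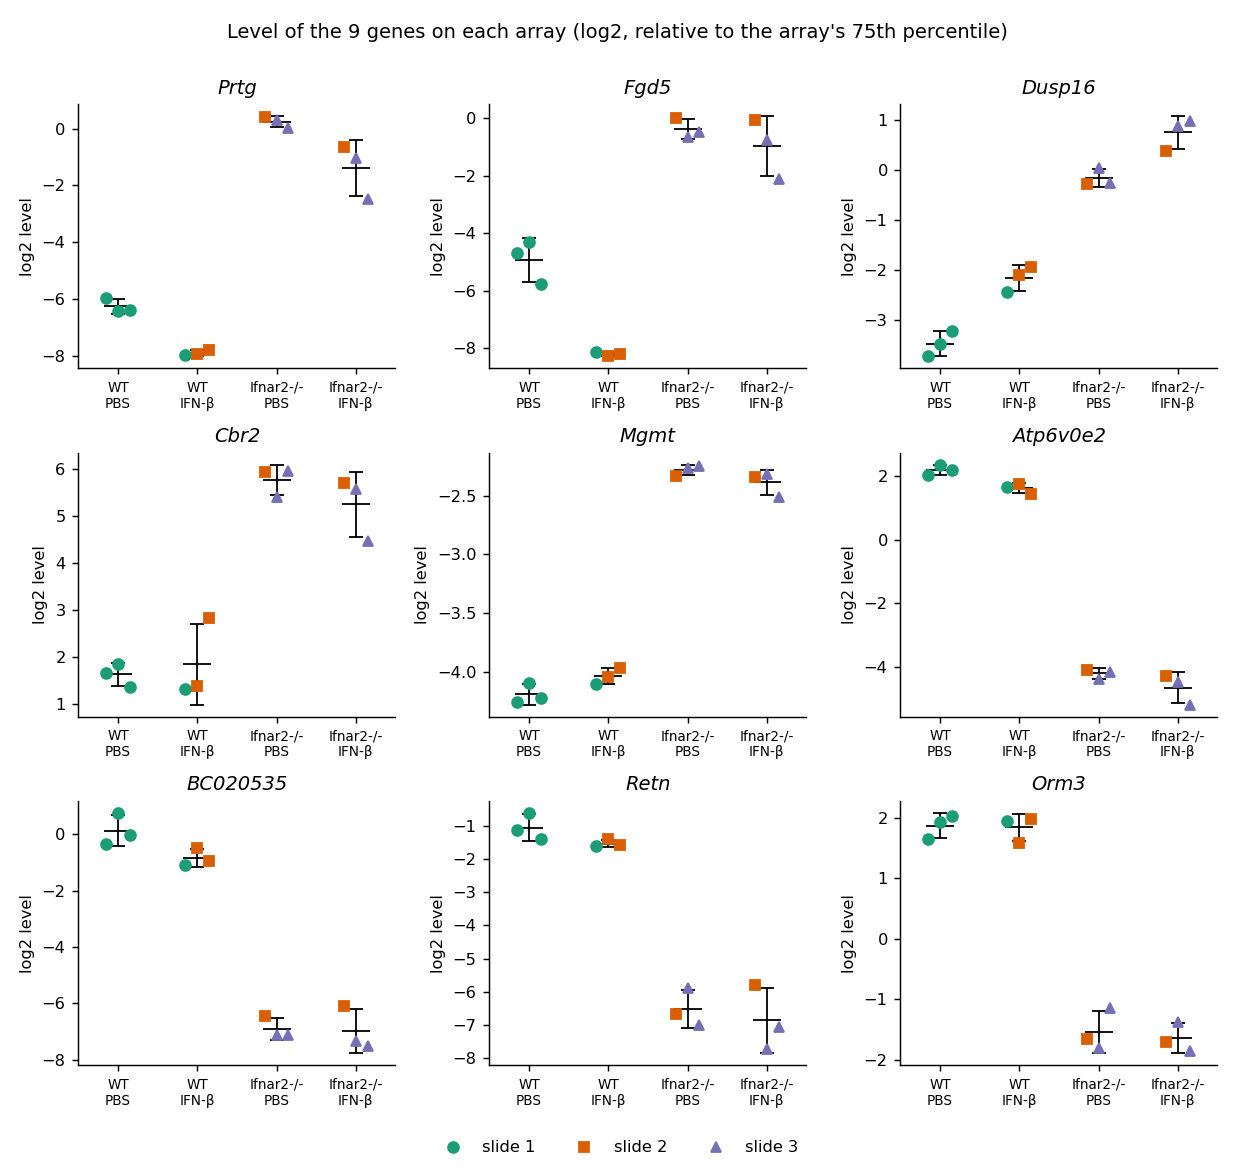
Level of each of the 9 genes on each of the 12 arrays, as log2 relative to the array's 75th percentile (y axis, a separate scale for each gene), in wild-type (WT) and Ifnar2-/- mice after PBS or IFN-β (x axis). Points are arrays, coloured by slide, and bars are the mean ± SD (n = 3). In every panel the Ifnar2-/- points lie apart from the wild-type points on the same side after both treatments. The PBS values were used to choose the genes, and after IFN-β 46.8% of all genes did not overlap.

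Retn encodes resistin, a small secreted protein known from adipose tissue and from myeloid cells. On A_52_P55972 wild-type mice had levels of -1.13, -0.61 and -1.39 after PBS and -1.60, -1.40 and -1.58 after IFN-β, and Ifnar2-/- mice had -6.69, -5.88 and -7.0 after PBS and -5.80, -7.74 and -7.06 after IFN-β. Every wild-type array was well above background, whereas 0 of 3 Ifnar2-/- arrays were after PBS and 1 of 3 after IFN-β. The difference, Ifnar2-/- minus wild type, was -5.34 ± 0.44 (SE) on the log2 scale after IFN-β (adjusted p = 6.77e-06) and -5.48 after PBS. Because the Ifnar2-/- PBS arrays gave only a bound, wild type was at least 25.4-fold higher there. Such a bound sets the mean of the bright group against, per array of the dim group, the higher of its own signal and the lowest signal well above background. The overlapping probe A_51_P233597 gave -4.76 after IFN-β and -5.99 after PBS, and normexp on A_52_P55972, a background correction that pulls dim signals together, gave -2.49 after IFN-β.

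The other resistin family genes did not share this pattern. Of Retnla, Retnlg and Cap1, a proposed resistin receptor, 0 of 3 tested were called after IFN-β or after PBS. Retnla, the brightest of them and a marker of alternatively activated macrophages, was 0.43 ± 0.18 higher after IFN-β (adjusted p = 0.085). Neutrophil markers, as list means over 11 genes, ran from -1.67 to -0.76 in wild type and from -1.77 to 0.65 in Ifnar2-/- after IFN-β, which overlapped; their part in the Retn and Orm3 results was not tested.

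A pair of neighbours of Retn had differences of similar size. Clec4g, a C-type lectin gene 60.1 kb from the Retn probe, lay at 2.37, 2.12 and 3.29 in wild type and at -2.36, -2.69 and -3.92 in Ifnar2-/- after IFN-β. Cd209a, which encodes the dendritic cell lectin DC-SIGN and lies 91.6 kb from the Retn probe, lay at -0.10, -0.09 and 1.32 in wild type and at -5.98, -4.95 and -7.02 in Ifnar2-/- after IFN-β. Neither gene's arrays overlapped between genotypes. Clec4g differed by -5.59 ± 0.62 after IFN-β (adjusted p = 5.52e-05) and -5.61 after PBS, but its probes disagreed in size, and their mean gave -2.62. Cd209a differed by -6.36 ± 0.61 (adjusted p = 2.05e-05) and -6.17; no Ifnar2-/- array was above background after IFN-β, which left wild type at least 53.8-fold higher, and normexp gave -3.76. Fewer cells of a type and less RNA per cell cannot be told apart in such bulk samples, here or in any result that follows.

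Orm3 encodes an orosomucoid, an acute-phase plasma protein of the lipocalin family that carries small lipophilic molecules. Its levels were 1.65, 1.94 and 2.04 in wild type after PBS, 1.96, 1.59 and 1.99 in wild type after IFN-β, -1.66, -1.81 and -1.15 in Ifnar2-/- after PBS, and -1.70, -1.37 and -1.86 in Ifnar2-/- after IFN-β. All 12 arrays were well above background. After IFN-β the genotypes stood apart by more than the range within either, while the PBS values had been used in the choice. The difference was -3.49 ± 0.20 after IFN-β (adjusted p = 5.24e-07) and -3.42 after PBS. IFN-β minus PBS was -0.03 in wild type and -0.10 in Ifnar2-/- for Orm3. These values rest on the PBS arrays used in the choice and carry no test.

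Orm1 and Orm2 lie -12.4 kb and 6.1 kb from the Orm3 probe and encode the other orosomucoids. After IFN-β Orm1 lay at -0.85, -1.43 and -0.42 in wild type and -4.10, -3.60 and -3.80 in Ifnar2-/-, and Orm2 at -0.26, -0.83 and 0.04 against -3.25, -3.05 and -3.18. Orm1 was thus lower by 2.93 ± 0.29 (a difference of -2.93, adjusted p = 2.31e-05; -2.91 after PBS). Orm2 differed by -2.81 ± 0.22 (adjusted p = 5.31e-06; -2.83 after PBS). The 3 genes differed together after both treatments. Of the 10 orosomucoid and acute-phase genes tested, 4 were lower and 0 higher after IFN-β, and after PBS Orm1 and Orm2 were the 2 called. The haptoglobin gene Hp (-1.07 ± 0.32, adjusted p = 0.021) and Serpina3n (adjusted p = 0.016) made up the rest. No Ifnar2-/- array was above background for Serpina3n, which left wild type at least 1.18-fold higher after IFN-β, and no array of either genotype was after PBS. Saa3, the brightest acute-phase gene, was not called (0.51 ± 0.26, adjusted p = 0.15).

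Because the Orm genes moved together, the 250 bases before the starts of Orm3 (chr4:63355908-63356157) and Orm2 (chr4:63362199-63362448) are shown, both on the plus strand of GRCm38.p6, from RefSeq. Capitals mark TATAAA, searched on the coding strand alone and held by 7.59% of 32851 promoter windows of that length. It begins 29 bases before the start of Orm3 and 33 before that of Orm2. In a global alignment 218 positions were identical, 27 mismatched and 10 gapped.

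Orm3: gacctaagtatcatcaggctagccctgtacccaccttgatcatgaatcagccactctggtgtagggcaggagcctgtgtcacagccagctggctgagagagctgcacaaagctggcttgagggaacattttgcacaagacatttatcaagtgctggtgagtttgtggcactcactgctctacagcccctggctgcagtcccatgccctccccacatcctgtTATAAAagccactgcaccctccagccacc
Orm2: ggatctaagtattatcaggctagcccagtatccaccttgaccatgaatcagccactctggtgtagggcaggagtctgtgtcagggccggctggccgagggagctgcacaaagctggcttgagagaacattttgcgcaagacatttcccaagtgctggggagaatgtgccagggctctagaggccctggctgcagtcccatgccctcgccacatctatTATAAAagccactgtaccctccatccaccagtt

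**Figure D2:**
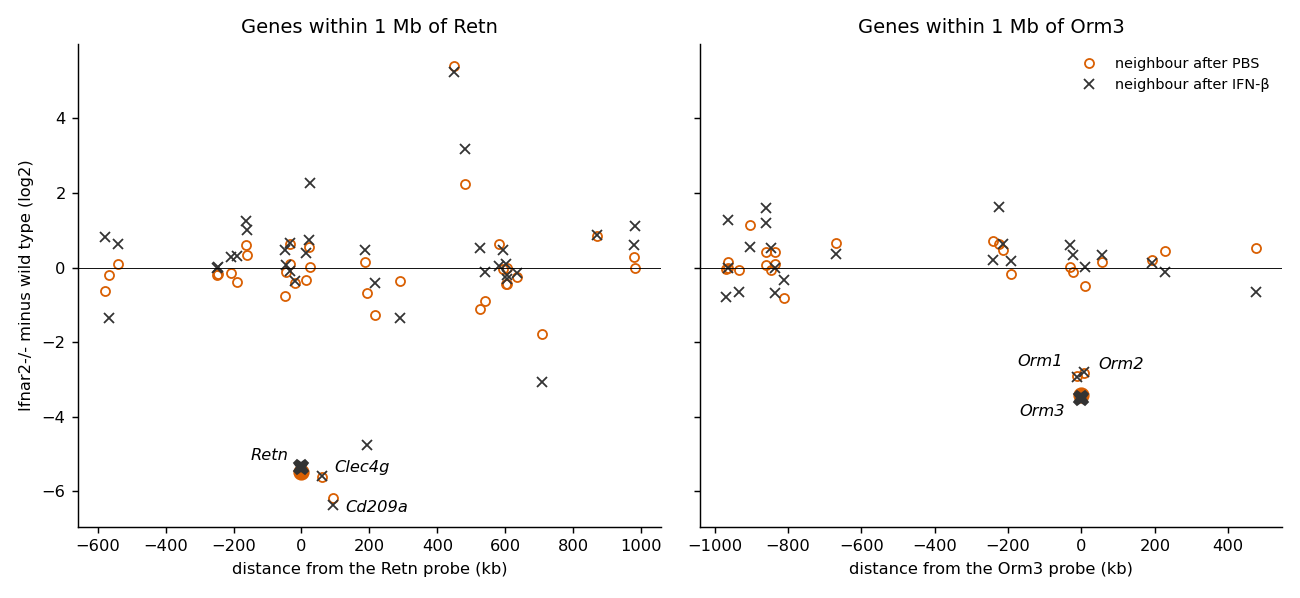
Difference between Ifnar2-/- and wild type (y axis, log2) for genes within 1 Mb of Retn (left) and Orm3 (right) against the distance from that gene's probe in kb (x axis), after PBS (circles) and after IFN-β (crosses); filled large symbols are Retn and Orm3. Clec4g and Cd209a lie near Retn, and Orm1 and Orm2 near Orm3, with near-equal differences after both treatments, while most other neighbours lie nearer 0.

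Prtg encodes protogenin, a transmembrane receptor of the immunoglobulin superfamily known from the embryo. On A_52_P674087 wild-type mice had levels of -5.96, -6.43 and -6.39 after PBS and -7.98, -7.95 and -7.78 after IFN-β. Ifnar2-/- mice had 0.40, 0.30 and 0.03 after PBS and -0.63, -1.03 and -2.48 after IFN-β. Wild-type signal was near background, with 1 of 3 arrays above it after PBS and 0 of 3 after IFN-β, while 6 of 6 Ifnar2-/- arrays were above it. Ifnar2-/- was higher by 6.52 ± 0.38 after IFN-β (adjusted p = 5.05e-07) and by 6.50 after PBS, and the bound after IFN-β was at least 26.8-fold. Normexp gave 2.31 after IFN-β and 3.59 after PBS. The other Prtg probes gave 6.0 and 3.68 after IFN-β and 6.43 and 5.13 after PBS. IFN-β minus PBS was -1.62 in Ifnar2-/-, a value that rests on the PBS arrays used in the choice and carries no test. No such change is given for wild type, where most arrays were not above background.

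Of 5 tested receptors and ligands of the DCC and neogenin family, to which protogenin is related, 2 were higher after IFN-β and 0 lower, and 0 were called after PBS. Igdcc4, a relative of protogenin, was 1.87 ± 0.41 higher (adjusted p = 0.0044; -0.62 after PBS), with no wild-type IFN-β array above background and a normexp value of 0.04. Rgma, a ligand of neogenin, was 0.73 ± 0.22 higher (adjusted p = 0.027), but its normexp value was -0.10 and with slide as a block it differed by 0.27 (adjusted p = 0.41). Neo1, neogenin itself, differed by 0.25 ± 0.31 (adjusted p = 0.55).

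Fgd5 encodes a guanine nucleotide exchange factor for the small GTPase Cdc42, best known in endothelial cells. Its levels were -4.67, -4.29 and -5.76 in wild type after PBS and -8.11, -8.26 and -8.21 in wild type after IFN-β, against 0.02, -0.65 and -0.47 in Ifnar2-/- after PBS and -0.06, -0.75 and -2.11 after IFN-β. All 3 wild-type PBS arrays were above background, but 0 of 3 wild-type IFN-β arrays were. Ifnar2-/- was 4.54 higher after PBS and 7.22 ± 0.49 higher after IFN-β (adjusted p = 1.49e-06), where the signal allows only a bound of at least 35.6-fold. Normexp gave 2.90 after PBS and 2.72 after IFN-β, so whether the difference grew depended on how background was treated. IFN-β minus PBS was -0.61 in Ifnar2-/-, a value that rests on the PBS arrays used in the choice and carries no test. Of 8 tested endothelial markers, 2 were higher and 3 lower in Ifnar2-/- after IFN-β, and 1 was higher (Cdh5, not above background on any PBS array) and 0 lower after PBS. As list means they ran from -3.78 to -3.30 in wild type and from -4.22 to -3.97 in Ifnar2-/- after IFN-β. Kdr (-4.93, with 0 of 3 Ifnar2-/- arrays above background) added most to that gap, while Erg (1.15) and Egfl7 (0.88) were higher. In wild type Kdr averaged -6.34 after PBS, with 1 of 3 arrays above background, and -1.24 after IFN-β. Its genotype difference after PBS was -0.15. The part of these markers in the Fgd5 result was not tested.

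Of 5 tested genes for FGD exchange factors and Cdc42, 1 was higher and 1 lower after IFN-β, and 0 were called after PBS. Fgd3 was higher by 1.46 ± 0.16 (adjusted p = 4.4e-05; -0.19 after PBS). Fgd6 was lower by 0.42 (a difference of -0.42 ± 0.11, adjusted p = 0.013), a call lost with slide as a block (-0.33, adjusted p = 0.16) and with no scaling (-0.04). Cdc42, the brightest, differed by 0.03 ± 0.12 (adjusted p = 0.86).

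Dusp16 encodes a dual-specificity phosphatase that inactivates the JNK and p38 stress kinases. On A_51_P242634 wild-type mice had levels of -3.72, -3.48 and -3.22 after PBS and -2.45, -2.09 and -1.94 after IFN-β, and Ifnar2-/- mice had -0.27, 0.04 and -0.26 after PBS and 0.38, 0.89 and 0.98 after IFN-β. Levels were higher after IFN-β than after PBS in both genotypes, by 1.31 in wild-type mice and 0.91 in the knockouts. These changes rest on the PBS arrays used in the choice and carry no test. After IFN-β the genotypes did not overlap. Ifnar2-/- was higher by 2.91 ± 0.20 after IFN-β (adjusted p = 1.89e-06) and by 3.31 after PBS. This rested on 1 of the 3 Dusp16 probes. A_52_P492081 differed by -0.36 ± 0.27 after IFN-β (adjusted p = 0.32 over all probes) and A_52_P374825 by -0.73 ± 0.27 (adjusted p = 0.055), and after PBS they gave -0.37 and -0.26. A_52_P492081 was above background on 1 of 3 Ifnar2-/- PBS arrays. A_52_P374825 was annotated to another transcript record than the other Dusp16 probes, and whether all read the same transcript was not tested. The mean of the 3 probes gave 0.61 (adjusted p = 0.030).

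**Figure D3:**
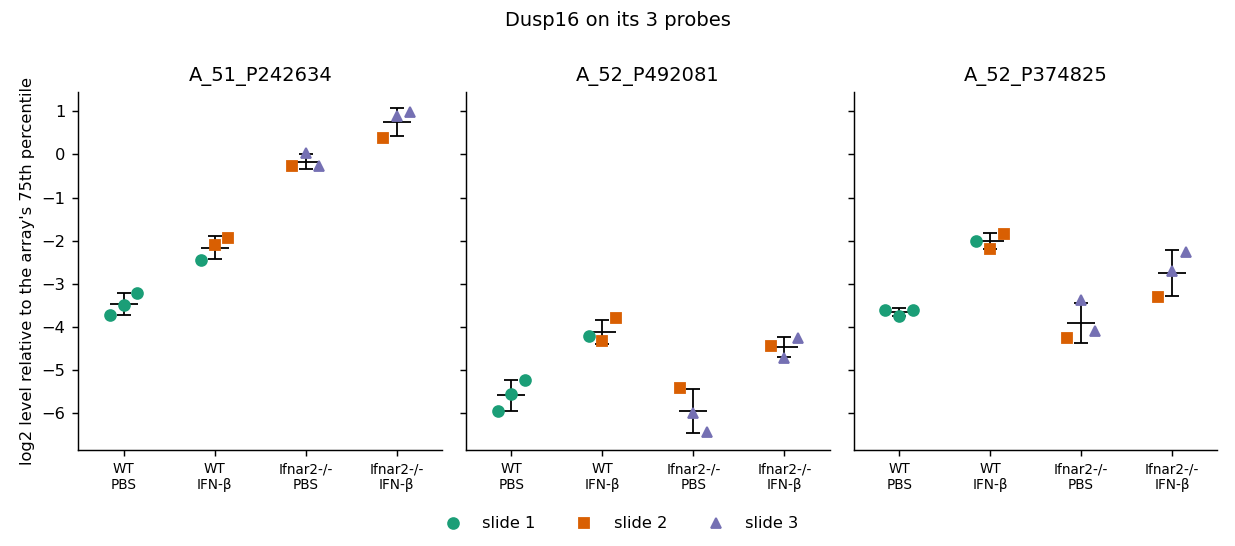
Level of the 3 Dusp16 probes on each array (y axis, log2 relative to the array's 75th percentile) in wild-type (WT) and Ifnar2-/- mice after PBS or IFN-β (x axis); points are arrays coloured by slide, bars the mean ± SD (n = 3). All 3 probes lie higher after IFN-β than after PBS in both genotypes, while A_51_P242634 alone lies higher in Ifnar2-/-.

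Of 13 tested JNK and p38 kinases, their activators and other dual-specificity phosphatases, 6 were higher and 3 lower after IFN-β, and 0 were called after PBS. Dusp1, an immediate-early phosphatase of the same kinases, was 2.50 ± 0.57 higher (adjusted p = 0.0055; 0.78 after PBS), but with slide as a block the adjusted p was 0.10. Mapk9, which encodes a JNK, differed by -1.61 ± 0.16 (adjusted p = 2.84e-05), and Mapk14, which encodes a p38 kinase, by 1.16 ± 0.16 (adjusted p = 0.000235). After PBS the differences of Mapk9 and Mapk14 were -0.20 and -0.003. Dusp6, the brightest of the list, was not called (0.49 ± 0.22, adjusted p = 0.11).

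BC020535, now named Ccm2l, encodes a relative of CCM2, a scaffold of the cerebral cavernous malformation complex. Its levels were -0.33, 0.75 and -0.02 in wild type after PBS, -1.08, -0.49 and -0.95 in wild type after IFN-β, -6.46, -7.12 and -7.14 in Ifnar2-/- after PBS, and -6.09, -7.35 and -7.51 in Ifnar2-/- after IFN-β. Only 1 of 3 Ifnar2-/- arrays was above background after each treatment, against all wild-type arrays. The difference was -6.14 ± 0.39 after IFN-β (adjusted p = 1.04e-06) and -7.04 after PBS, and normexp gave -3.18 after IFN-β. Of 8 tested genes of the complex and its targets, 3 were higher and 1 lower after IFN-β, and 0 were called after PBS. The membrane anchor gene Heg1 was 1.03 ± 0.21 higher (adjusted p = 0.0033) and Pdcd10, also known as CCM3, was lower by 0.76 (a difference of -0.76 ± 0.10, adjusted p = 0.000207). With slide as a block Heg1 had an adjusted p of 0.059. Klf2, a transcription factor gene downstream of the complex and the brightest, differed by 0.24 ± 0.22 (adjusted p = 0.43).

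Atp6v0e2 encodes a small subunit of the membrane sector of the vacuolar proton pump. On A_51_P212038 wild-type mice had levels of 2.04, 2.35 and 2.19 after PBS and 1.65, 1.75 and 1.45 after IFN-β, and Ifnar2-/- mice had -4.08, -4.39 and -4.14 after PBS and -4.28, -4.47 and -5.18 after IFN-β. The groups were tight, and the signal stayed above background on 3 of 3 and 2 of 3 Ifnar2-/- arrays, so this difference was measured on both sides. It was -6.26 ± 0.21 after IFN-β (adjusted p = 9.47e-09) and -6.40 after PBS. The second probe gave -5.29 and -4.94, but was above background on only 1 of 3 Ifnar2-/- arrays after IFN-β and 2 of 3 after PBS.

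Its paralogue Atp6v0e, the brightest V-ATPase membrane gene, differed by 0.16 ± 0.11 after IFN-β (adjusted p = 0.29) and by 0.02 after PBS. Of 9 tested genes of that sector, 4 were higher and 2 lower after IFN-β, and Atp6ap2, an accessory subunit, was the 1 called after PBS (0.41; 0.61 ± 0.09 after IFN-β, adjusted p = 0.00051). The a-subunit genes went opposite ways after IFN-β: Atp6v0a1 was 1.81 ± 0.16 higher (adjusted p = 8.65e-06) and Tcirg1 differed by -1.47 ± 0.13 (adjusted p = 1.19e-05). After PBS they differed by 0.42 and 0.10.

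Cbr2 encodes a carbonyl reductase of the short-chain dehydrogenase family. Its levels were 1.67, 1.87 and 1.38 in wild type after PBS and 1.33, 1.39 and 2.85 after IFN-β, against 5.95, 5.41 and 5.97 in Ifnar2-/- after PBS and 5.71, 5.59 and 4.47 after IFN-β. Wild-type IFN-β array 3 was the highest wild-type array and Ifnar2-/- IFN-β array 3 the lowest Ifnar2-/- array, and they still lay apart. Ifnar2-/- was higher by 3.40 ± 0.43 after IFN-β (adjusted p = 0.000134) and by 4.14 after PBS. Of 6 tested carbonyl and dicarbonyl reductases, 2 were higher and 1 lower after IFN-β, and 0 were called after PBS. Cbr1, a cytosolic carbonyl reductase, was 1.16 ± 0.15 higher (adjusted p = 0.000151; 0.36 after PBS). Cbr4, a mitochondrial one, differed by -0.66 ± 0.20 (adjusted p = 0.023), a call lost with slide as a block (-0.48, adjusted p = 0.23) and with no scaling (-0.28), and Cbr3, the brightest, by -0.05 ± 0.20 (adjusted p = 0.86).

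Of 9 markers of resident macrophages that carry the mannose receptor, 3 were higher in Ifnar2-/- after IFN-β (against 21.3% of all genes) and 0 lower: Lyve1 by 5.42, Folr2 by 3.29 and Cd163 by 4.06. List means over the 9 ran from 1.5 to 1.79 in wild type and 2.77 to 3.16 in Ifnar2-/- after PBS, and from 1.09 to 2.12 and 2.71 to 3.1 after IFN-β. The other 6 were not called and lay between -0.42 (Cd209d) and 0.43 (Retnla), with the defining gene Mrc1 at 0.40 ± 0.29 (adjusted p = 0.31), so the list means were set by those 3 genes. Mast cell markers were higher too, 8 of 10 after IFN-β with 1 lower, with list means of 1.91 to 2.11 in wild type and 2.65 to 2.96 in Ifnar2-/-. After PBS 2 of those 10 were higher and 0 lower. T and NK cell markers (6 of 10 higher, 1 lower) and dendritic cell markers (4 of 6 higher, 0 lower) leaned higher after IFN-β as well. Monocyte markers went the other way after IFN-β, with 0 of 6 higher and 4 lower. Of the 6 monocyte and 10 T and NK cell markers, 0 were called after PBS. Of the 6 dendritic cell markers, 2 were higher and 0 lower after PBS. The median difference of the monocyte markers was -0.07 after PBS and -1.82 after IFN-β. In wild type their list means ran from 3.32 to 3.83 after PBS and from 5.07 to 5.23 after IFN-β. The part of any of these cell types in the results of Cbr2 or the other genes was not tested.

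Mgmt encodes the methyltransferase that removes alkyl groups from guanine in DNA. Its levels were -4.26, -4.09 and -4.22 in wild type after PBS, -4.11, -4.05 and -3.97 in wild type after IFN-β, -2.33, -2.27 and -2.25 in Ifnar2-/- after PBS, and -2.34, -2.32 and -2.51 in Ifnar2-/- after IFN-β. It had the smallest difference of the 9 and the smallest spread, and all 12 arrays were above background. Ifnar2-/- was higher by 1.65 ± 0.10 after IFN-β (adjusted p = 6.72e-07) and by 1.91 after PBS; normexp gave 0.91 after IFN-β. Of 7 tested genes of alkylation damage and mismatch repair, 2 were higher and 1 lower after IFN-β, and 0 were called after PBS. Alkbh2, a DNA dealkylase, was 0.65 ± 0.17 higher (adjusted p = 0.011), Pms2, a mismatch repair gene, 0.53 ± 0.12 higher (adjusted p = 0.0044) and the dealkylase gene Alkbh3 differed by -0.37 ± 0.13 (adjusted p = 0.041; 0.01 with no scaling). With slide as a block these 3 differed by 0.64, 0.42 and -0.48, with adjusted p values of 0.084, 0.083 and 0.068. The tested repair genes' PBS differences ran no further from 0 than that of Alkbh2, at -0.23.

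Across the 9 family lists 33 of 66 tested genes were called after IFN-β (50%, against 38.5% of all genes), 20 higher and 13 lower, with a median difference of 0.32 against 0.08 for all genes. With slide as a block 19 were called (28.8%, against 23.9% of all genes), and without the arrays of slide 3, a setting chosen after seeing the data, 17 (25.8%, against 24.9%). After PBS 4.88% of all genes were called, and Orm1, Orm2 and Atp6ap2 were the list genes among them.

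Interferon-stimulated genes, in contrast, had unlike differences after the 2 treatments. Their median difference was -1.97 after PBS and -10.21 after IFN-β. Ifit1, an antiviral RNA-binding protein gene, was above background on no Ifnar2-/- array, and wild type was at least 3855-fold higher after IFN-β (adjusted p = 2.88e-09) and at least 3.70-fold higher after PBS. Rsad2, which encodes viperin, differed by -13.17 and -1.82, with 1 and 2 of 3 Ifnar2-/- arrays above background. The difference after IFN-β minus that after PBS was -0.74 for Cbr2, -0.40 for Dusp16, -0.26 for Mgmt, -0.07 for Orm3 and 0.13 for Atp6v0e2, values given with no test because they share the PBS arrays. For Prtg, Fgd5, BC020535 and Retn, where 1 genotype was near background, no such change is given. In the whole table, 578 genes were called after PBS with at least a 2-fold difference (3.16% of those tested), the 9 among them by choice. Of the 578, 432 (74.7%) were called in the same direction after IFN-β and 27 (4.67%) in the opposite direction. The 578 and the 432 include interferon-stimulated genes: 17 of the 24 listed were called lower after PBS, and all 24 after IFN-β. The PBS and IFN-β comparisons share no array, but they share slides and a single estimate of the spread. Passing both is therefore not an independent repeat. With slide as a block 31 genes met the PBS criterion and 29 of them were called the same way after IFN-β. As no slide held both genotypes after PBS, that fit needed IFN-β arrays for its PBS difference, so the comparisons shared arrays there.

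**Figure D4:**
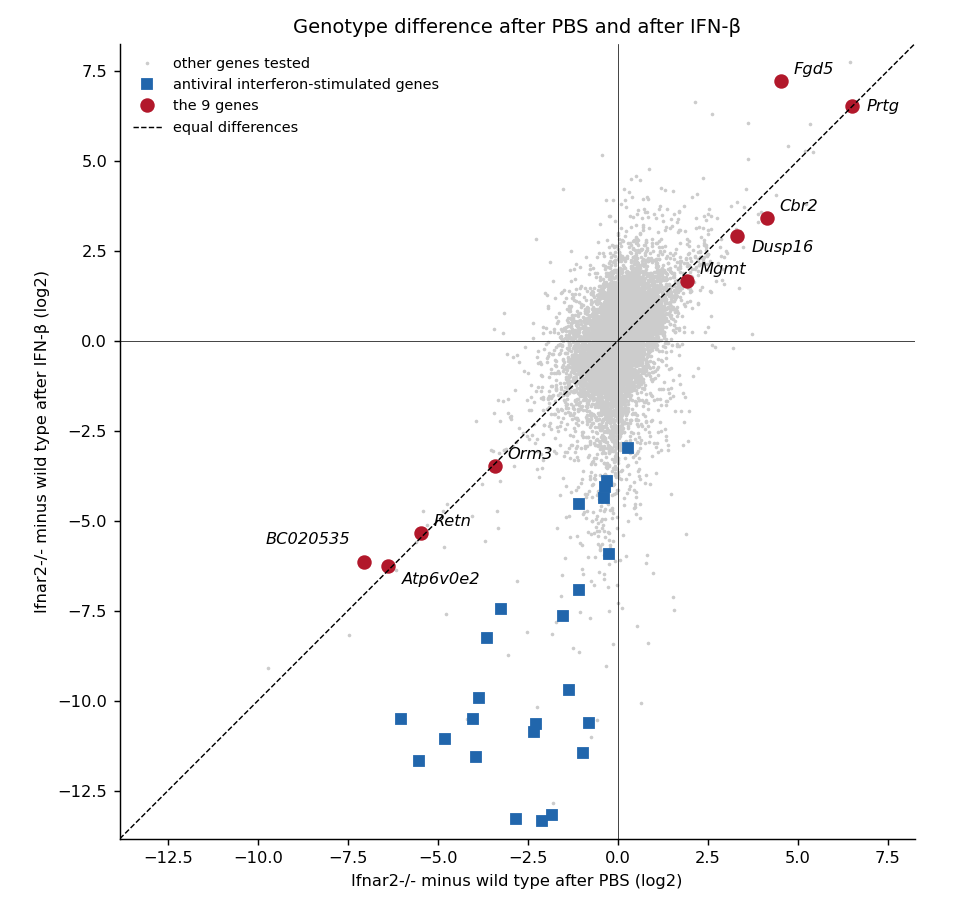
Difference between Ifnar2-/- and wild type after IFN-β (y axis, log2) against that after PBS (x axis, log2) for each gene tested, with the 9 genes in red, 24 antiviral interferon-stimulated genes in blue and other genes in grey; the dashed line marks equal differences. Most of the 9 genes lie near the line, and Fgd5 lies above it (4.54 and 7.22) with wild type not above background after IFN-β, while the interferon-stimulated genes lie below it. Prtg, Retn and BC020535 also had a genotype near background, so how near the line they lie is not well known.

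Slide 2, which held both genotypes after IFN-β, gave each difference within 1 slide, with 2 wild-type arrays and 1 Ifnar2-/- array. The values there were 7.24 for Prtg, 8.18 for Fgd5, 2.40 for Dusp16, 3.59 for Cbr2, 1.67 for Mgmt, -5.88 for Atp6v0e2, -5.37 for BC020535, -4.32 for Retn and -3.49 for Orm3. All 9 kept their direction there, which the lack of overlap over all IFN-β arrays had already fixed, so this is no separate check. With slide as a block in the fit, 9 of 9 were also called, against 23.9% of all genes, with adjusted p from 2.49e-06 for Atp6v0e2 to 0.00239 for Cbr2.

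Promoter windows from 250 bases before to 50 after the gene start were found in RefSeq (GRCm38.p6) for 8 of the 9 genes, 9 windows in all. The interferon-stimulated response element, searched on both strands as GAAA, any 2 bases and GAAA,, was in 0 of the 9 windows and in 3.44% of all 32851. The gamma-activated site, searched as TTCNNNGAA, which reads the same on both strands, was in 0 of the 9 and in 8.3% of all. Among 17 interferon-stimulated genes of the list with a window, 11 held the first motif and 3 the second. A match or its lack describes these letters in these windows alone.

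Genes around the 9 were compared to see whether differences came in chromosomal groups. Within 1 Mb of a member's probe 113 of 267 neighbours were called after IFN-β (42.3%, near the 38.5% of all genes), 74 higher and 39 lower. Neighbours called in the same direction after both treatments were 23 of 267 (8.61%), against 3.47% of all genes. That count compares the treatments with each other and not the neighbour with its member. The 23 lay near Retn (6 of 37), Atp6v0e2 (5 of 42), Dusp16 (4 of 18), Prtg (3 of 20), Orm3 (2 of 25), Cbr2 (2 of 70) and Fgd5 (1 of 17). There were 0 of 34 near BC020535 and 0 of 4 near Mgmt. The 3 near Prtg were all lower in Ifnar2-/-, opposite to Prtg. Those near Atp6v0e2 and near Dusp16 were of both directions, and those near Orm3, Cbr2 and Fgd5 had the direction of their member. Gpnmb, a glycoprotein gene of macrophages 514.8 kb from Atp6v0e2, was higher by 3.51 ± 0.47 after IFN-β (adjusted p = 0.00020) and by 3.90 after PBS, opposite to Atp6v0e2; wild type was above background on 1 and 0 of 3 arrays, the bound after PBS was at least 7.26-fold, and normexp gave 1.02 and 0.86. Emp1, a membrane protein gene 667.2 kb from Dusp16, was higher by 1.52 ± 0.25 (adjusted p = 0.00077) and by 1.08. The transcript AK032904, at -525.9 kb from the Dusp16 probe, went opposite to Dusp16. It differed by -2.89 ± 0.27 after IFN-β (adjusted p = 1.45e-05) and by -1.31 after PBS, with 2 of 3 Ifnar2-/- PBS arrays above background. Prickle2 near Fgd5 (2.32 and 2.95) and 2900052L18Rik near Cbr2 (3.08 and 1.72) also differed after both, with no wild-type IFN-β array above background for either. Their bounds after IFN-β were at least 1.11-fold and 1.73-fold, and normexp gave 0.008 and 0.22 there. Their differences after IFN-β thus depended on how background was treated. Tpx2, a spindle gene near BC020535, was called after IFN-β (-2.39 ± 0.30, adjusted p = 0.000123) and not after PBS (-0.78). The 6 near Retn were of both directions: Clec4g, Cd209a and Ccl25 were lower, and BC020092, Cers4 and ENSMUST00000078702 higher.

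Likeness of pattern was measured as Pearson r over the 12 arrays, which fall apart by genotype, so r mostly carries that split and is given with no p. The lower genes resembled each other: BC020535 was the gene most like Atp6v0e2 (r = 0.994) and like Retn (r = 0.989). H2-Ea, which encodes a chain of an MHC class II molecule, was among the 3 most alike for Atp6v0e2, BC020535 and Retn (r = 0.991, 0.985 and 0.981). H2-Ea lay at 2.64, 2.00 and 2.67 in wild type and -7.83, -7.25 and -6.74 in Ifnar2-/- after PBS, and at 2.16, 2.67 and 1.94 against -6.18, -7.33 and -7.03 after IFN-β. No Ifnar2-/- array was above background, and wild type was at least 284-fold higher after PBS and at least 228-fold after IFN-β; normexp gave -5.73 after IFN-β. Orm3 was most like Orm2 (r = 0.992) and Prtn3, a neutrophil granule protease gene (r = 0.992).

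Among the higher genes, Prtg was most like Gdpgp1, Serinc3 and 2810025M15Rik (r = 0.983, 0.983 and 0.981), and Mgmt was most like Qsox1, Rprd1b and the ficolin gene Fcna (r = 0.989, 0.988 and 0.988). Serinc3, a serine incorporator gene, was higher in Ifnar2-/- by 2.26 after PBS and 2.11 after IFN-β, and Fcna by 2.48 and 2.38. Fgd5 was most like Lima1, Mid2 and Atrn (r = 0.986, 0.986 and 0.982), and Dusp16 was most like Cygb, Tigar and the transcript NM_001004175 (r = 0.983, 0.971 and 0.963). Lima1 and Mid2 differed by 2.72 and 3.37 after IFN-β and by 1.74 and 1.68 after PBS. Cbr2 was most like the transcripts ENSMUST00000001667 and ENSMUST00000078702 and the gene Pianp (r = 0.989, 0.983 and 0.982). The second of these transcripts was read 448.6 kb from the Retn probe and was higher in Ifnar2-/- by 5.41 after PBS and 5.24 after IFN-β, opposite to Retn.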

How the data were processed

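The values are the deposited processed signals of 12 single-colour Agilent arrays, an intensity on a linear scale. Per the file headers, Agilent Feature Extraction 9.5.3.1 had subtracted background and removed a trend within each array, and the authors' values were not normalized between arrays. The deposited mean and local background signals, also intensities, were used for the normexp alternative (offset 50). The value table of the series, also deposited, matched the scanner files (0 of 45018 values differed).

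Outlier spots were left out, spots of a probe averaged, and log2 values taken relative to the array's 75th percentile. Kept were the 27716 probes that exceeded background on every array of some group and had values on 6 or more arrays, and a gene was its brightest kept probe. A single limma 3.58.1 fit (R 4.3.3; files read with version 1.17.8 of data.table) held 4 group means over 12 arrays, with 8 residual and 2.38 prior degrees of freedom; p values are two-sided and adjusted by Benjamini-Hochberg. The code was tested on simulated data. The number of arrays limits precision. Motifs and the alignment used Python with Biopython.

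The genes, lists and alternatives were chosen with earlier results of these data known. Named besides the 9 are, per family list, up to 3 called genes of largest difference and the brightest; per gene, up to 2 called neighbours within 1 Mb and the 3 genes of highest r; and up to 4 interferon-stimulated genes. Hp, Ccl25, BC020092, Cers4 and the macrophage and endothelial markers named singly were chosen after their values were seen.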

Additional observations from a re-analysis of the deposited data

How the results depend on the processing

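The 9 genes were all called after IFN-β in the same direction under normexp, quantile normalization, no scaling, no filter on dim probes, the mean of a gene's probes, the IFN-β arrays alone, slide as a fixed or random block, and without the arrays of slide 3 (chosen after seeing the data; single arrays are then assumed to vary like the other groups). Restricting the table to probes above background on all arrays left 4 of the 9, all called. With slide as a fixed block 4359 of all genes, 19 family genes and 29 persisting genes (of 31) were called; without slide 3 these were 4559, 17 and 219 (of 279). Normexp gave 280 persisting genes (of 356), and a window of 3 Mb gave 205 called neighbours of 497. The cause of these shifts was not tested, apart from the fewer arrays and the wider window. Leaving out 1 array at a time gave 9 of the 9 throughout, 5355 to 7250 of all genes, 27 to 33 family genes, 86 to 121 neighbours and 296 to 602 persisting genes. Replicate numbers were not taken to pair mice across genotypes: same-numbered arrays of the IFN-β groups correlated at 0.09, 0.09 and -0.01 in their deviations from group means, and not every array correlated best with its own number. Within Ifnar2-/-, same-numbered PBS and IFN-β arrays correlated at 0.51, 0.19 and 0.10; they also lay on the same slides, and that comparison is not tested here. The replicate block gave 9 of the 9, 7032 of all genes, 32 family genes, 116 neighbours and 496 persisting genes. Signals near background, in wild type for Prtg and Fgd5 and in Ifnar2-/- for Retn and BC020535, limit how well the size of their differences is known.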
